A study of Homo sapiens with 6 samples.

Results

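The BTG and TOB genes encode a small family of antiproliferative proteins, and 5 of them are described here: BTG1, BTG2, BTG3, TOB1 and TOB2. They were taken by symbol from the 60676 Ensembl gene IDs of the count tables, where each symbol matched 1 ID, and all 5 passed the filter on low counts that left 15577 genes to test. RNA sequencing was done on HEK293A cells, an adherent line derived from human embryonic kidney, after 2 h with the DMSO vehicle (3 libraries) or with VT01454 at 20 nM for the same time (3 libraries). No genotype, transgene or other agent is named for either group, and both come from 1 cell line. The title of the study places the compound, known here only by its code, in work on phosphatidylinositol transfer proteins and the Hippo pathway. Whether the 3 libraries of each group stem from separate cultures is not said in the labels, and the p-values then measure only the spread between these libraries, which may be technical.

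Proteins of this family share an amino-terminal domain that binds the CNOT7 and CNOT8 deadenylases of the CCR4-NOT complex, the main enzyme that shortens the poly(A) tails of cytoplasmic mRNAs. TOB1 and TOB2 also bind the cytoplasmic poly(A)-binding protein through PAM2 motifs in their longer carboxy-terminal part, while BTG1 and BTG2 bind the arginine methyltransferase PRMT1. BTG2 was isolated as a primary response gene, under the names TIS21 and PC3, and is a transcriptional target of p53. BTG1 is a reported target of FOXO factors, and TOB1 was found as a partner of the receptor ERBB2. High levels of these proteins slow the entry of cells into S phase, and BTG1, BTG2 and TOB1 are associated with quiescence in lymphocytes.

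Sequence upstream of the genes is shown for BTG2 and BTG1, the members with the largest differences between the groups. Each stretch is the part of the RefSeq promoter window (GRCh38.p14, read 5′ to 3′ on the strand of the gene) that lies before the outermost transcript start of the gene in GENCODE release 29. Capitals mark matches, on either strand, to the CRE core TGACG, the CCAAT box CCAAT, the GC box GGGCGG, the FOXO motif GTAAACA, the E2F motif TTCCCGC and the AP-1 motif TGANTCA, in which N is any base.
BTG2, chr1:203305269-203305490, plus strand: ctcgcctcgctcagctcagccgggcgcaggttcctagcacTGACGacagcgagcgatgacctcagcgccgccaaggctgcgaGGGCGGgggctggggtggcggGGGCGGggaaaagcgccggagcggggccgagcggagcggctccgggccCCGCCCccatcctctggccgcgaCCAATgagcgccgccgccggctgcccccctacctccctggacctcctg
BTG1, chr12:92145898-92146096, minus strand: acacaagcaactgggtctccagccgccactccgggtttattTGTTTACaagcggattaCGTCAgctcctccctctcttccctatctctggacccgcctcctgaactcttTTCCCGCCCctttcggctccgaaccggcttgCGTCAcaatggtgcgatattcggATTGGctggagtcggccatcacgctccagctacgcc
BTG2 held a CRE core 210 bases before its RefSeq start, 3 GC boxes and a CCAAT box 76 bases before the start. BTG1 held 2 CRE cores, at 192 and 110 bases, a CCAAT box in reverse at 87 bases, a FOXO motif in reverse at 209 bases, and an E2F motif that overlaps its GC box. Over the whole windows of 300 bases, 24.6% of all 35116 RefSeq windows held a CRE core, 34.6% a CCAAT box, 45.0% a GC box, 3.42% the FOXO motif, 6.55% the E2F motif and 7.71% the AP-1 motif. Within its whole window BTG1 also had a TATAAA match 33 bases before the start, present in 11.5% of windows. TOB2 had 2 GC boxes and an E2F motif, BTG3 had 3 GC boxes and the ETS motif CCGGAAG (10.3% of windows), and the second of the RefSeq windows of TOB1 had a CRE core, a CCAAT box and 3 GC boxes. None of the 6 windows of the 5 genes held the AP-1 motif, the EGR motif GCGTGGG (6.98%), an SRF CArG box (1.29%) or a p53 decamer (6.63%). These matches are descriptions of letters in a window, and their absence says only that the letters are not there.

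Total counts ran from 19126039 to 28880374, and members had 537 to 3143 counts per library, a relative counting error of 1.78% to 4.32%. Vehicle libraries differed more from each other than compound libraries did, with a chi-square per degree of freedom of 7.77 to 19.6 between pairs of vehicle libraries and 2.02 to 2.77 between pairs of compound libraries. Pairs of a vehicle and a compound library gave 7.54 to 17.7, and so were no further apart than pairs of vehicle libraries. Vehicle library 2 had the highest values of these, and results are therefore also given without single libraries. Markers fitted the line only in part: VIM, NEFL, CDH2, SOX4 and KRT18 were above 10 CPM (read counts scaled to a common library total) in every library, while the nephric genes PAX2 and LHX1 stayed at or below 0.716 CPM. Among markers of other cell types, PTPRC and CD3E were at 0 in every library. Fibroblast markers summed to 23.5 to 35.9 CPM with vehicle and 22.1 to 30.6 CPM with compound, most of it COL1A1. In bulk RNA, fewer cells of a type and less RNA per cell cannot be told apart.

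After 2 h with VT01454, transcripts of BTG2, BTG1 and TOB2 were higher than with vehicle, by 1.59-fold, 1.32-fold and 1.24-fold. TOB1 stood 1.19-fold higher without passing the test, and BTG3 showed no difference beyond the spread between libraries. Thus 3 of 5 members passed the quasi-likelihood test of edgeR (adjusted p below 0.05 by Benjamini-Hochberg), all higher, where 1.89% of all tested genes passed, 1.27% as higher and 0.616% as lower. All 5 log2 fold changes were above 0, with a median of 0.31, beside a median of −0.0073 over all tested genes. In 4 of 5 members every compound library stood above every vehicle library, as it did in 11.3% of tested genes. In no member did every compound library stand below, the arrangement of 9.84% of tested genes.

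**Figure D1:**
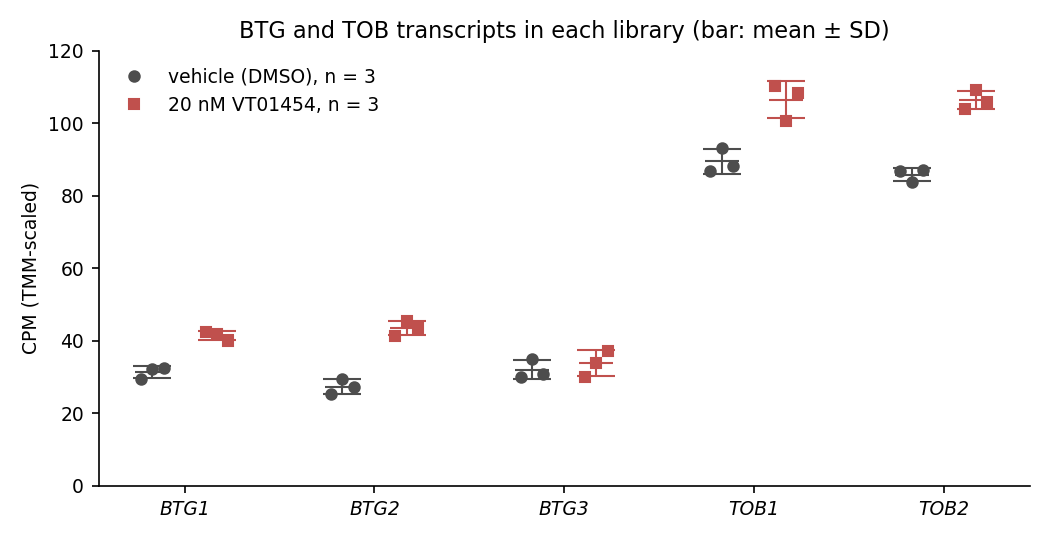
TMM-scaled CPM of each family member in the 3 vehicle libraries (circles) and the 3 compound libraries (squares), with the mean and SD of each group as bars. The groups do not overlap for BTG1, BTG2, TOB1 and TOB2, and they overlap for BTG3.

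BTG2 (ENSG00000159388, chromosome 1, 203305491 to 203309602, plus strand) is protein-coding, with 2 exons after merging its transcripts. It had 25.3, 29.4 and 27.4 CPM in the vehicle libraries and 41.4, 45.4 and 43.6 CPM in the compound libraries. The lowest compound library was thus well above the highest vehicle library, and the spread was alike in both groups. Means were 27.4 ± 2.02 and 43.5 ± 2.01 CPM (SD, n = 3 each), and the log2 fold change was 0.67 ± 0.08 (SE, edgeR adjusted p = 3.74e-04). By size this rise ranked 44 of the 198 genes that rose, and 1.53% of all tested genes had a higher log2 fold change. The rise passed without any single library, at a log2 fold change of 0.62 to 0.72 and an adjusted p of 8.89e-06 to 0.0131.

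BTG1 (ENSG00000133639, chromosome 12, 92140278 to 92145897, minus strand) encodes the paralogue closest to BTG2. Its level was 29.5, 32.2 and 32.6 CPM with vehicle and 42.5, 41.9 and 40.0 CPM with compound. The 3 compound libraries lay close together and above all vehicle libraries, of which library 1 was the lowest. Mean levels were 31.4 ± 1.69 and 41.4 ± 1.30 CPM (SD, n = 3 each), with a log2 fold change of 0.40 ± 0.07 (edgeR adjusted p = 0.0107), which 4.44% of tested genes exceeded. The call depended on vehicle library 1 (adjusted p = 0.101 when it was left out) and on each compound library (0.0906, 0.0862 and 0.0527 when library 1, 2 or 3 was left out), while the log2 fold change stayed between 0.36 and 0.43. Such losses were not particular to BTG1. Over all genes 294 passed with all 6 libraries, and 93, 136, 109 and 108 without these libraries in turn. The same limit applies to the later calls that needed these libraries. On the same strand the non-coding LINC01619, at 25 to 58 counts per library, shares 503 exonic bases with BTG1, and reads there may be lost or assigned to either gene.

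TOB2 (ENSG00000183864, chromosome 22, 41433492 to 41447023, minus strand) encodes one of the PAM2-bearing members. Levels of 86.7, 83.7 and 87.1 CPM with vehicle stood against 104, 109 and 106 CPM with compound. Both groups were tight, and the gap between them was wider than either group's range. Means of 85.8 ± 1.90 and 106 ± 2.56 CPM (SD, n = 3 each) gave a log2 fold change of 0.31 ± 0.06 (edgeR adjusted p = 0.0140). As with BTG1 the call depended on vehicle library 1 (adjusted p = 0.0894 when it was left out) and on compound libraries 1, 2 and 3 (0.0841, 0.144 and 0.118), at log2 fold changes of 0.29 to 0.33. Its processed pseudogene TOB2P1 had 18 to 38 counts per library, against 1603 to 2964 for TOB2.

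TOB1 (ENSG00000141232, chromosome 17, 50862223 to 50867978, minus strand) encodes the other PAM2-bearing member. It stood at 86.9, 93.2 and 88.3 CPM with vehicle and at 110.3, 101 and 108 CPM with compound. The groups did not overlap, but vehicle library 2 and compound library 2 approached each other. Its log2 fold change of 0.25 ± 0.06 did not pass in edgeR (unadjusted p = 0.00138, adjusted p = 0.0642). It passed without vehicle library 2 (adjusted p = 0.00785) or vehicle library 3 (0.0193), in DESeq2 (0.0107) and without a count filter (0.0120). It did not pass in the other 4 edgeR fits that left out a library (adjusted p as high as 0.326). Nor did it in 5 of the 7 alternatives that kept all 6 libraries (as high as 0.0925). With all 6 libraries TOB1 thus lies near the threshold. The antisense TOB1-AS1 overlaps it by 281 exonic bases and had 5 to 17 counts per library, against 1786 to 3143 for TOB1.

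BTG3 (ENSG00000154640, chromosome 21, 17593653 to 17612947, minus strand) encodes a more distant BTG protein and has 7 merged exons. It had 30.0, 35.0 and 30.9 CPM with vehicle and 30.1, 33.8 and 37.3 CPM with compound. The groups overlapped along most of their range, with the lowest compound library next to the lowest vehicle library. Means of 32.0 ± 2.64 and 33.7 ± 3.58 CPM gave a log2 fold change of 0.078 ± 0.09 (edgeR adjusted p = 0.731), and 0.0036 to 0.16 without any single library. The gene CXADR ends 74 bases away on the opposite strand, and the antisense BTG3-AS1 had at most 3 counts in a library. BTG4, the remaining BTG gene, which is not among the 5, had 0 counts in every library, a count that allows up to 0.104 to 0.157 CPM.

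**Figure D2:**
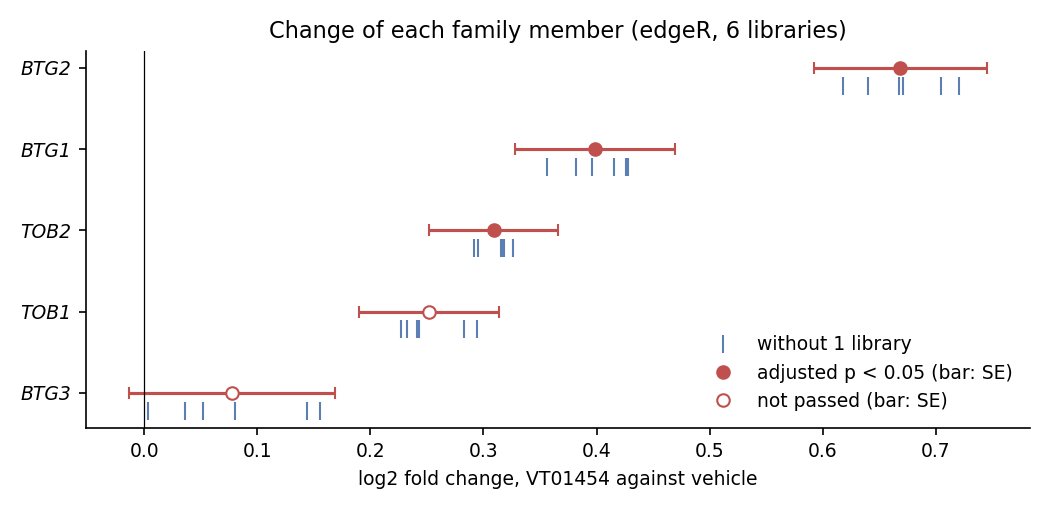
Log2 fold change of each member, VT01454 against vehicle, with its SE (filled circles passed at an adjusted p below 0.05), and below it the values with each library left out (blue ticks). BTG2 stands apart at 0.67, BTG1, TOB2 and TOB1 lie from 0.25 to 0.40, and the SE of BTG3 reaches across 0.

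The order of the members differs when levels are put on a common scale of CPM per exonic kilobase. With vehicle TOB1 was the most abundant at 35.5 ± 1.32 CPM per kilobase (SD, n = 3), followed by TOB2 at 18.8 ± 0.417, BTG3 at 13.9 ± 1.14, BTG2 at 9.92 ± 0.734 and BTG1 at 6.47 ± 0.349. No neighbours in that order overlapped between vehicle libraries, and TOB1 was 5.48-fold above BTG1. With compound the levels per kilobase were 42.2 ± 2.01 for TOB1, 23.3 ± 0.561 for TOB2, 15.8 ± 0.730 for BTG2, 14.6 ± 1.55 for BTG3 and 8.54 ± 0.269 for BTG1. BTG2 was below BTG3 in every vehicle library. With compound it stood at 15.0, 16.5 and 15.8 against 13.1, 14.6 and 16.2 CPM per kilobase for BTG3, above it in compound libraries 1 and 2 and below it in library 3, and the ranges of these neighbours in the order overlapped. The sum over the 5 genes was 84.5 ± 3.03 CPM per kilobase with vehicle and 104 ± 1.70 with compound. Of that sum BTG2 made up 11.2% to 12.1% in vehicle libraries and 14.5% to 15.9% in compound libraries, whereas BTG3 made up 15.9% to 17.3% and 12.6% to 15.2%. These levels use the merged exons of all transcripts in GENCODE release 29 as length (from 2306 bases for BTG3 to 4854 for BTG1), so a gene that mainly uses a shorter transcript is set too low.

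**Figure D3:**
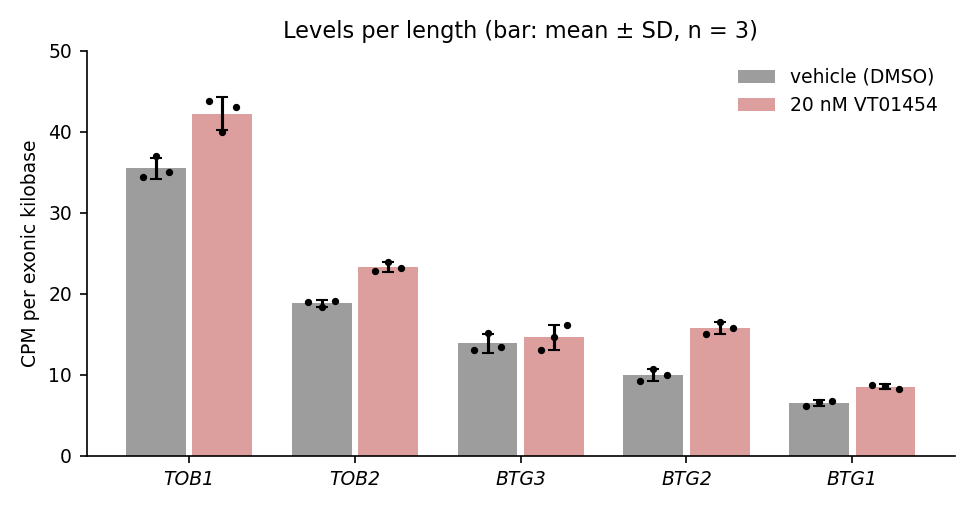
Mean level per length (CPM per exonic kilobase, bars from 0, SD as error bars, n = 3) of each member with vehicle and with VT01454, with the single libraries as dots. The order is TOB1, TOB2, BTG3, BTG2, BTG1 with vehicle, and with the compound the libraries of BTG2 and BTG3 overlap.

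The paralogues were also set against each other inside each library, as log2 ratios of their counts, which do not depend on library size. The ratio of BTG2 to BTG1 was −0.22, −0.13 and −0.25 in vehicle libraries and −0.036, 0.12 and 0.12 in compound libraries. It shifted by 0.27 on the log2 scale, from −0.20 ± 0.06 to 0.068 ± 0.09 (SD, n = 3 each), with no overlap between the groups (exact two-sided permutation p = 0.1, adjusted p = 0.167 over the 10 pairs). With 3 against 3 libraries 0.1 is the smallest p possible, so no pair could pass.

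Between TOB1 and TOB2 the ratio was 0.0024, 0.16 and 0.019 with vehicle and 0.085, −0.11 and 0.032 with compound. These values overlapped, at a shift of −0.058 (exact permutation p = 0.6, adjusted p = 0.6), so a difference between the TOB paralogues was not detectable. The widest shift was that of BTG2 against BTG3, from −0.22 ± 0.04 to 0.37 ± 0.13, or 0.59 on the log2 scale. BTG2 against TOB1 shifted by 0.42 and BTG2 against TOB2 by 0.36. In all 4 pairs with BTG2 every compound library had the higher ratio of BTG2, and so it was for BTG1 and for TOB1 against BTG3, with shifts of 0.33 and 0.18 (exact permutation p = 0.1 and adjusted p = 0.167 for each of these 6 pairs). In the remaining 4 pairs the libraries overlapped: TOB1 against TOB2, BTG1 against TOB1 (0.15), BTG1 against TOB2 (0.091) and TOB2 against BTG3 (0.23), with exact permutation p = 0.6, 0.2, 0.3 and 0.2. Pairs that share a gene are not independent of each other, and the shifts largely restate differences between the fold changes of the members. How often pairs of other genes separate the groups was not computed, so the count of such pairs is only a description.

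**Figure D4:**
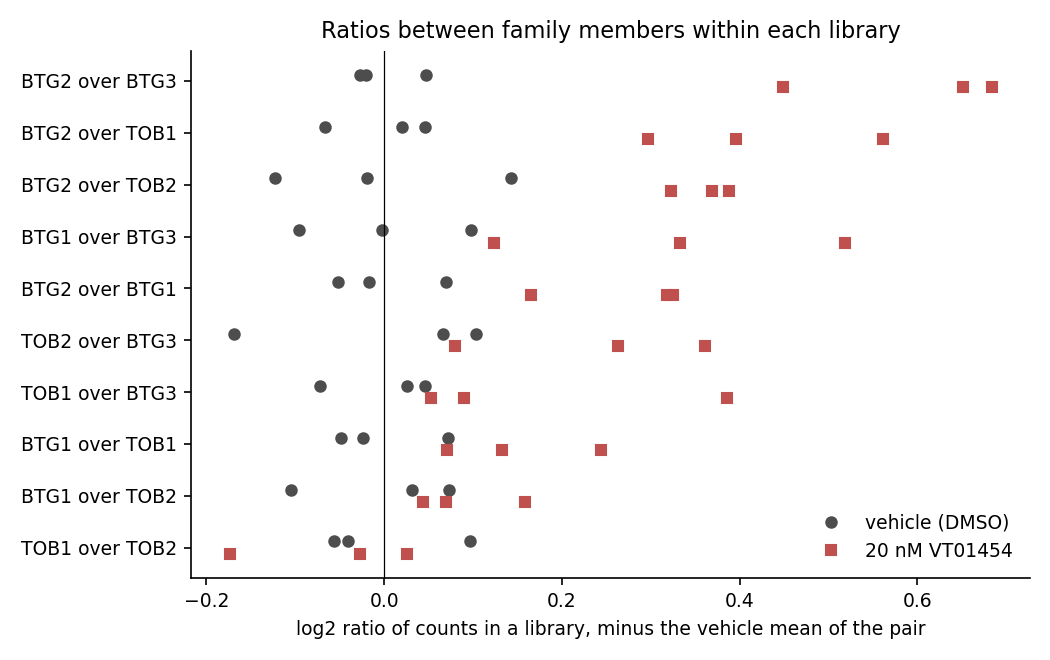
Log2 ratio of the counts of each pair of members in each library, minus the mean of the pair in vehicle libraries, for vehicle (circles) and VT01454 (squares). In 6 of 10 pairs, all 4 with BTG2 among them, the compound libraries lie to the right of all vehicle libraries. The side depends on which gene of a pair is named first.

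The genes whose pattern was most like that of each member were taken by the highest Pearson correlation of log2 CPM over the 6 libraries, among 9139 other protein-coding genes with a mean of at least 10 CPM. The libraries fall into the groups compared, so for members that differed between groups the correlation mostly restates that difference. For BTG2 these were COQ10B, IRF2 and PNRC1 (r = 0.996, 0.995 and 0.995), of which PNRC1, a nuclear receptor coregulator, rose from 40.4 to 64.4 CPM (log2 fold change 0.67 ± 0.08, edgeR adjusted p = 3.65e-04). COQ10B and IRF2 did not pass (edgeR adjusted p = 0.0835 and 0.132). For BTG1 they were the Kruppel-like factor gene KLF4, the glutamine synthetase gene GLUL and APOLD1 (r = 0.995, 0.993 and 0.993), with KLF4 rising by 0.66 ± 0.09 on the log2 scale (edgeR adjusted p = 0.00166). APOLD1 rose as well (edgeR adjusted p = 0.00166), and GLUL did not pass (0.0980). TOB1 was closest to DDX10, KLF10 and SHISA2 (r = 0.995, 0.989 and 0.989), and TOB2 to LRIG3, BOC and RBM15 (r = 0.999, 0.996 and 0.995). Of these, KLF10, LRIG3 and RBM15 rose (edgeR adjusted p = 0.0255, 0.0105 and 0.00134). DDX10, SHISA2 and BOC did not pass (edgeR adjusted p = 0.393, 0.171 and 0.373). BTG3 was closest to COP1, LOX and TESK1 (r = 0.985, 0.972 and 0.958), none of which passed the test.

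Of 11 subunits of the CCR4-NOT complex with which the family works, 1 fell and 10 did not pass, with a list median of 0.040. Among all tested genes 0.616% fell and 1.27% rose. The subunit that fell was CNOT3, at 34.0, 30.2 and 39.9 CPM with vehicle and 26.8, 24.2 and 24.4 CPM with compound (log2 fold change −0.47 ± 0.10, edgeR adjusted p = 0.0295). Every compound library was below every vehicle library, but the call needed vehicle library 1 and each compound library (adjusted p as high as 0.193 with one of them left out). The next by p was CNOT10, at 0.15 ± 0.06 (edgeR adjusted p = 0.267). Leaving out vehicle library 3 gave 1 higher and 1 lower subunit. Chosen after their values were seen, as the subunits that bind BTG and TOB proteins directly, CNOT7 stood at 0.090 ± 0.06 and CNOT8 at 0.075 ± 0.07 (edgeR adjusted p = 0.539 and 0.644).

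Among 8 other deadenylases none passed, with TOE1 at −0.26 ± 0.09 and PAN3, a subunit of the PAN2-PAN3 deadenylase, at 0.16 ± 0.08 (edgeR adjusted p = 0.198 and 0.401). DESeq2 called none either, 1 of the 8 had an unadjusted edgeR p below 0.05, and without vehicle library 3 TOE1 and PAN3 passed, 1 in each direction. None of 12 tested poly(A)-binding proteins and PAM2 partners passed in edgeR with the count filter or in DESeq2, with 2 at an unadjusted edgeR p below 0.05, the lowest p being those of LARP4 (0.21 ± 0.07, edgeR adjusted p = 0.158) and PABPC1L (−0.29 ± 0.11, adjusted p = 0.271). LARP4 passed without vehicle library 3 (edgeR adjusted p = 0.00281) and without a count filter (0.0446). Of 16 tested decapping and decay factors 1 rose, the decapping activator DCP1A, from 58.8 ± 6.73 to 76.9 ± 1.59 CPM (0.38 ± 0.08, edgeR adjusted p = 0.0270). For comparison, 1.27% of all tested genes rose and 1.89% passed in either direction. The DCP1A call likewise needed vehicle library 1 and each compound library (adjusted p as high as 0.167), without vehicle library 3 a second factor rose, and the exonuclease gene XRN1 stood at 0.20 ± 0.14 (adjusted p = 0.538).

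Of 14 tested other proteins that recruit CCR4-NOT to mRNAs, 3 rose, none fell and 11 did not pass, with a median of 0.24, where 1.27% of all tested genes rose. ZFP36, whose product binds AU-rich elements, rose from 2.64 ± 0.115 to 6.42 ± 0.946 CPM (1.28 ± 0.16, edgeR adjusted p = 7.77e-04) and passed without any single library. RC3H1, the gene of the stem-loop binding protein roquin, and ZFP36L1 rose by 0.44 ± 0.10 and 0.29 ± 0.07 on the log2 scale (edgeR adjusted p = 0.0490 for both). Both lie at the threshold: with vehicle library 1 or a compound library left out their adjusted p reached 0.281 and 0.296, and with scaling by library size alone it was 0.0742 and 0.0777. The number of members that rose was 1 whenever vehicle library 1 or a compound library was left out, 5 without vehicle library 2 and 9 without vehicle library 3, and it was 1 with scaling by library size alone.

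Of 10 reported protein partners of the family, 1 fell and 9 did not pass, where 0.616% of all tested genes fell. SMAD6, an inhibitory SMAD of BMP signalling, went from 41.3 ± 3.56 to 32.6 ± 0.409 CPM (−0.34 ± 0.08, edgeR adjusted p = 0.0442). This call, too, needed vehicle library 1 and each compound library (adjusted p as high as 0.255), and limma-voom gave an adjusted p of 0.0501. HOXB9, a homeobox gene, stood at 0.20 ± 0.07 (edgeR adjusted p = 0.225). PRMT1 and ERBB2, chosen after their values were seen, stood at −0.025 ± 0.07 and −0.027 ± 0.07 (edgeR adjusted p = 0.885 and 0.894).

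BTG2 belongs to the TIS set of primary response genes, which counts 6 genes beside BTG2. Of these, 4 rose, each by more than BTG2 did, 1 fell and 1 did not pass, with a median of 1.45. The shares of all tested genes were 1.27% higher and 0.616% lower. EGR1, a zinc finger factor gene, had 16.2, 24.5 and 14.1 CPM with vehicle and 188, 188 and 193 CPM with compound (log2 fold change 3.39 ± 0.18, edgeR adjusted p = 1.09e-04). FOS rose by 2.26 ± 0.17, NR4A1, the gene of an orphan nuclear receptor, by 1.41 ± 0.12 and ZFP36 by 1.28 on the log2 scale. IFRD1, known as TIS7, went the other way, with 74.5, 76.5 and 79.1 CPM with vehicle and 48.3, 51.5 and 48.8 CPM with compound (−0.63 ± 0.06, edgeR adjusted p = 1.09e-04). PTGS2, the remaining one, which codes for a cyclooxygenase, was near the limit of counting at 0.401 and 1.17 CPM and did not pass (edgeR adjusted p = 0.123). The same 4 to 1 count was found without any single library, and without a count filter 5 were higher and 1 lower. That EGR1 and FOS rose strongly in these libraries was known when the list was written.

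BTG2 is also a p53 target, and of 20 other p53 targets 2 rose, 1 fell and 17 did not pass, with a median of −0.073. Among all tested genes 1.27% rose and 0.616% fell. HEK293 derivatives carry an adenoviral early protein that binds p53, and its bearing on the p53 targets was not tested. BBC3, a proapoptotic BH3-only gene, rose by 0.70 ± 0.13 and CDKN1A, the gene of the CDK inhibitor p21, by 0.30 ± 0.07 on the log2 scale (edgeR adjusted p = 0.0208 and 0.0492). PLK2, a polo-like kinase gene, was at −0.61 ± 0.10 (edgeR adjusted p = 0.00438). The calls of BBC3 and CDKN1A needed each compound library, and besides these vehicle library 2 for BBC3 and vehicle library 1 for CDKN1A (adjusted p as high as 0.112 and 0.265). The call of PLK2 needed vehicle library 1 and compound library 2 (adjusted p as high as 0.0715), and CDKN1A did not pass with scaling by library size alone (0.0709) or in limma-voom (0.0518). Without vehicle library 3, 5 p53 targets were higher and 3 lower, without vehicle library 1 it was 1 and 0, and without compound libraries 1, 2 and 3 in turn 0 were higher and 1, 0 and 1 lower.

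Of 17 tested FOXO targets other than BTG1, 4 rose, none fell and 13 did not pass, with a median of 0.297. These were IRS2, an insulin receptor substrate gene (0.46 ± 0.05, edgeR adjusted p = 3.03e-04), CCNG2, an atypical cyclin gene (0.42 ± 0.08, adjusted p = 0.0166), FBXO32, a ubiquitin ligase gene (0.44 ± 0.09, adjusted p = 0.0205), and FOXO3 (0.39 ± 0.09, adjusted p = 0.0412). Over all 17 the log2 fold changes ran from −0.32 to 0.58. The calls stand beside 1.27% of all tested genes that rose and 0.616% that fell. IRS2 passed whichever library was left out. The calls of the other 3 needed vehicle library 1 and compound libraries 2 and 3, and those of FBXO32 and FOXO3 compound library 1 as well (adjusted p as high as 0.134 for CCNG2, 0.147 for FBXO32 and 0.231 for FOXO3). With scaling by library size alone FOXO3 had an adjusted p of 0.0667, and DESeq2 called 7 FOXO targets higher and 1 lower. Without vehicle library 3, 9 were higher and 1 lower. Without vehicle library 1 or compound library 2 or 3, 1 was higher, and without compound library 1, 2 were.

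Of 12 tested G1 cyclins, their kinases and inhibitors, CDKN1A alone rose and 11 did not pass, with a median of −0.012. Among all tested genes 1.27% rose. CCND1, the cyclin D1 gene that BTG2 is reported to repress, stood at 265 ± 14.2 CPM with vehicle and 295 ± 3.02 with compound (0.15 ± 0.06, edgeR adjusted p = 0.238). Without vehicle library 3, 3 of the 12 were higher, and none passed when vehicle library 1 or a compound library was left out.

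**Figure D5:**
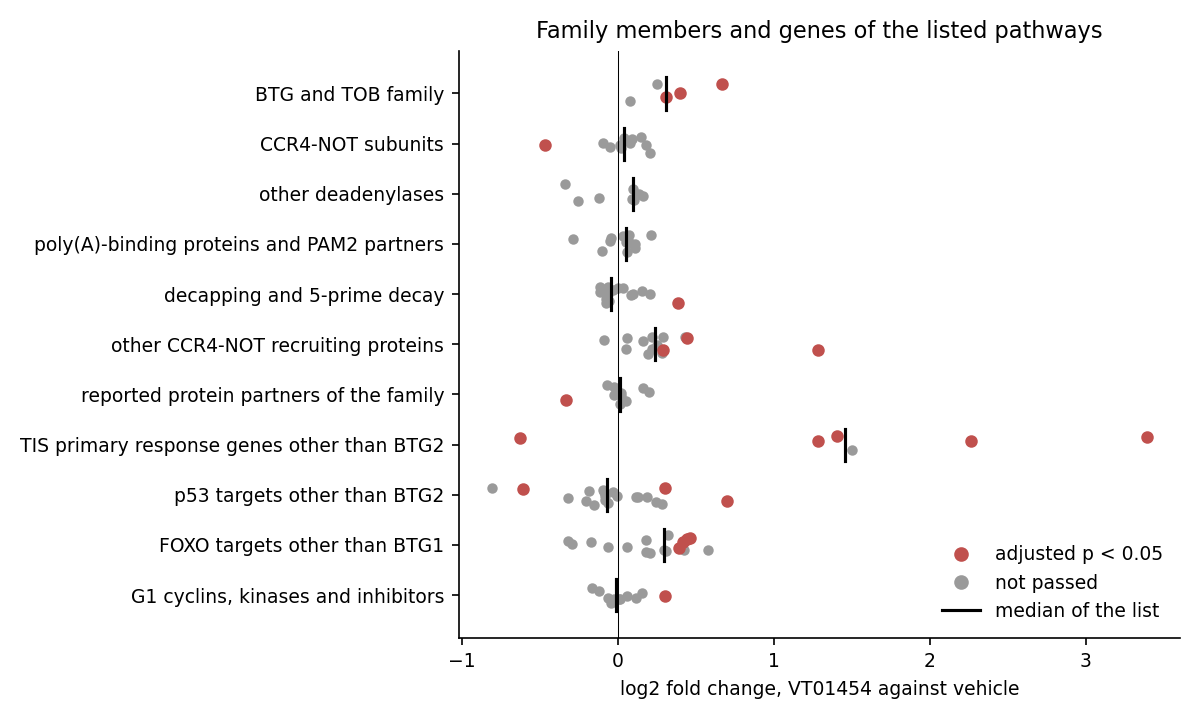
Log2 fold change, VT01454 against vehicle, of the 5 family members and of the tested genes of 10 lists, with genes at an adjusted p below 0.05 in red and the median of each list as a black line. Medians of the family (0.31), of other CCR4-NOT recruiting proteins (0.24), of FOXO targets (0.297) and of TIS genes (1.45) lie furthest to the right of 0, and the CCR4-NOT subunits lie around 0 apart from CNOT3. The medians of the other lists run from −0.073 (p53 targets) to 0.095 (other deadenylases).

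Over the 10 lists, 17 of 122 tested genes passed, 13 higher and 4 lower, which is 13.9% beside the 1.89% of all tested genes. Some genes stand on more than 1 list, ZFP36 and CDKN1A among those that passed. The lists were drawn up with earlier results of these libraries known, so the share is a description of the lists and not a test of them.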

How the data were processed

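RNA of 6 HEK293A samples was sequenced. For each the authors deposited a table of unnormalized counts by Ensembl gene ID. HTSeq (0.9.1), HISAT2 (2.2.1) and hg38 appear in the submitters' processing notes. Which annotation release and strand option were used is not given in the sources used here. Reads of overlapping antisense genes may therefore be mixed.

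Symbols were matched to 60357 of 60676 IDs. Coordinates (1-based), gene types and merged exon lengths come from GENCODE release 29 (GRCh38), and promoter windows (250 bases before to 50 after a start) from RefSeq on GRCh38.p14; all 5 members matched.

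Counts were fitted with edgeR 4.0.16 in R 4.3.3: filterByExpr, TMM factors and the two-sided quasi-likelihood F-test with robust dispersion, adjusted over all 15577 tested genes by Benjamini-Hochberg, called at 0.05. The SE was taken as the log2 fold change over the root of the F statistic. CPM use TMM-scaled library sizes, except for markers and limits of a 0 count (3 counts), which use library totals and cover counting error only. Log ratios of pairs added 0.5 to each count. The fit was also run on counts simulated with its own dispersions, the same in both groups. Such counts do not hold the wider spread of the vehicle libraries, and no result here rests on them.

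Alternatives were DESeq2 1.42.0, its size factors, library size alone, other count filters, limma-voom (limma 3.58.1), the replicate number as a block, an adjusted p of 0.01, a count of 2 added in the ratios, and leaving out each library. The members and lists were chosen with earlier results of these data known. Named genes are the 5 members, up to 4 passing genes of smallest p per list or the 2 of smallest p where fewer than 2 pass, and the 3 most similar genes of each member; others are said to be chosen after their values were seen. The SOD2 and TOB1P1 symbols matched no ID and were not analysed here.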

Additional observations from a re-analysis of the deposited data

How the results depend on the processing

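The direction of all 5 members and of all 10 paralogue differences was the same under every alternative run. For the pairs these were only a count of 2 added and leaving out each library. With a library left out, the shift of TOB1 over TOB2 came as near 0 as −0.00051, and that of BTG1 over TOB2 fell to 0.038. BTG2 passed in all 13 refits. BTG1 and TOB2 passed in all 7 alternatives that kept the 6 libraries and in 2 of the 6 that left one out. TOB1 passed in 2 of these 7, DESeq2 (log2 fold change 0.26) and the fit without a count filter (0.27), and in 2 of the 6. Without a count filter 713 genes passed over all and 30 list genes, and at an adjusted p below 0.01 these were 125 and 7, with BTG2 as the 1 member. Leaving out 1 library gave 93 (without vehicle library 1) to 1806 (without vehicle library 3) changed genes against 294 with all 6, and 136, 109 and 108 without compound libraries 1, 2 and 3. It gave 1 to 4 members, 6 to 41 list genes against 17, and log2 fold changes of 0.36 to 0.43 for BTG1, 0.29 to 0.33 for TOB2 and 0.23 to 0.29 for TOB1.

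Same-numbered vehicle and compound libraries showed no shared deviation from their group means, at correlations of −0.070, 0.028 and −0.014. With 3 libraries a group these values cannot show whether same-numbered samples were handled together. With the replicate number as a block 339 genes and the same number of members, 3, passed. Library size alone moved the median of all genes to −0.031. Recruiting proteins that rose were 6 in DESeq2, 7 without a count filter and 1 with library size alone, against 3. FOXO targets called were 8 in DESeq2, 9 without a count filter and 7 with the block, against 4, and p53 targets were 5 without a count filter, against 3. All 6 TIS genes passed with the block and without a count filter, 5 higher and 1 lower, against 5. ZFP36L1 did not pass in limma-voom or with the block (adjusted p = 0.0550 and 0.0574), RC3H1 not with a mean of at least 1 CPM (0.0524), and CDKN1A not with the block (0.0671). Counting error of the members was at most 4.32%, while 3 libraries a group limit any exact test to 0.1.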
